A study of Homo sapiens with 17 samples.

Results

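The genes described here are 30 listed members of the mevalonate, cholesterol, SREBP and fatty acid synthesis pathways, of 38151 protein-coding and long non-coding RNA genes of the RefSeq annotation (hg38, GRCh38.p14). They were chosen by pathway membership, with their peak cover in the NC1235 and Si1235 arms already known from these same libraries, so the differences between arms below are a description of chosen genes. They fall into a sterol branch of 16 genes (7 mevalonate enzymes and 9 later sterol enzymes), 5 SREBP regulators, 2 genes of lipid handling and a fatty acid branch of 7 genes.

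The cells were HCC1954, an established HER2-positive human breast cancer line, transfected with antisense oligonucleotides (short synthetic strands that pair with an RNA) and fixed after 72 hours. Both arms, NC1235 and Si1235, were transfected, and the labels do not spell out the 2 names. The series title names LINC01235, a long non-coding RNA, and the sequence and number of the oligonucleotides are not given in the sources used here. Chromatin immunoprecipitation with sequencing (ChIP-seq) gave 2 libraries per arm for the histone variant H2AZ and for H3K27ac and H3K36me3, and 1 per arm for H3K9ac. A further library, titled NC1235, came from ChIRP (chromatin isolation by RNA purification), which pulls down DNA lying near a chosen RNA; there was 1 such library. The labels do not state that replicates were separate cultures, so p-values reflect library-to-library spread, part or all of which may be technical. A single cell line was used, and an arm without transfection was not analysed here.

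Cells make cholesterol from acetyl-CoA through the mevalonate pathway, and fatty acids from the same precursor through acetyl-CoA carboxylase and fatty acid synthase. Both routes are switched on by the SREBP transcription factors, which SCAP escorts out of the endoplasmic reticulum when sterols are scarce and which the INSIG proteins hold back when sterols are plentiful. SREBPs bind sterol regulatory elements in promoters together with partners such as NF-Y, which binds CCAAT boxes, and Sp1, which binds GC boxes. H3K36me3 is laid down over the bodies of transcribed genes, and H2AZ, H3K27ac and H3K9ac mark active promoters.

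Promoter sequences were in the RefSeq table for 26 of the 30 genes, and the 250 bases before the listed start (GRCh38.p14) were searched on both strands, counting overlapping matches. The CCAAT box (CCAAT) was in the stretch of 10 of 13 sterol branch genes and 2 of 6 fatty acid branch genes, against 34.4% of 15813 coding promoters. Matches at 2 or more places were found in 6 of 13 sterol branch genes and 2 of 6 fatty acid branch genes, against 11.5% of all coding promoters. MVK had 5 matches, MSMO1 had 4, and MVD and FDPS had 3 each. The sterol regulatory element (TCACNCCAC) was found in SREBF2 alone among the members and in 0.885% of all coding promoters. The E-box (CACGTG) was in SC5D, SCAP and INSIG1, and in 7.83% of all. The GC box (GGGCGG) was in 25 of 26 members and in 56.0% of all. A match is a description of letters, and a stretch without one says nothing of a factor's binding.

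The 6 stretches below are shown for 4 genes with lower H3K36me3 cover in Si1235 or several CCAAT boxes (HMGCS1, MSMO1, MVD, INSIG1), for the 1 member with a sterol regulatory element match (SREBF2) and for a fatty acid gene with higher H2AZ cover in Si1235 (SCD). They are HMGCS1 at chr5:43313413-43313662 on the minus strand, MSMO1 at chr4:165327419-165327668 on the plus strand, MVD at chr16:88663092-88663341 on the minus strand, INSIG1 at chr7:155297628-155297877 on the plus strand, SREBF2 at chr22:41832855-41833104 on the plus strand and SCD at chr10:100346983-100347232 on the plus strand. Each runs 5′ to 3′ up to the base before the start. Capitals mark CCAAT boxes (CCAAT, or ATTGG for a match on the other strand), the E-box and the sterol regulatory element, and GC boxes are left in lower case.
HMGCS1: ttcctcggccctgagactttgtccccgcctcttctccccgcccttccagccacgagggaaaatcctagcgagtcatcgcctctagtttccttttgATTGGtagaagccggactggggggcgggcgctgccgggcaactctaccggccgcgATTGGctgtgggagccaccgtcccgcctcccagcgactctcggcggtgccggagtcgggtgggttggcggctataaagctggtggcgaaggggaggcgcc
MSMO1: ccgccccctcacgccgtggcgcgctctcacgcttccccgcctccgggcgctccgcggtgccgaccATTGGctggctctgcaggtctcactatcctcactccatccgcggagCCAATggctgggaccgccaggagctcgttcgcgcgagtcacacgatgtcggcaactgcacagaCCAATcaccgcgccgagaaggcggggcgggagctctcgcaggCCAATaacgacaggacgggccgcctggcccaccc
MVD: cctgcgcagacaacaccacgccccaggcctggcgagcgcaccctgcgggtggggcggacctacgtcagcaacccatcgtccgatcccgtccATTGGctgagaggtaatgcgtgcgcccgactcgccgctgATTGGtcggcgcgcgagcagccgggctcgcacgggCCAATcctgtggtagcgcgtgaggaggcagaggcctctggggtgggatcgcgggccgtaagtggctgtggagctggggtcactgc
INSIG1: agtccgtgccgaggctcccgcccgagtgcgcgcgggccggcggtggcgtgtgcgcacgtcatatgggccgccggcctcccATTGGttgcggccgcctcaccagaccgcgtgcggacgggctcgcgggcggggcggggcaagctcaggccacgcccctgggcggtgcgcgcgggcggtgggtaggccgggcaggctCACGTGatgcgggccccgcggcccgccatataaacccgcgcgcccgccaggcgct
SREBF2: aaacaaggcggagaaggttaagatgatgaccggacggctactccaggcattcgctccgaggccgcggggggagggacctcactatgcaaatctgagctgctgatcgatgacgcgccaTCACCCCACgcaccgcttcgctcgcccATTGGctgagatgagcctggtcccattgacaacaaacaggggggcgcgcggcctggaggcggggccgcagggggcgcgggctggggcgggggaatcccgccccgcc
SCD: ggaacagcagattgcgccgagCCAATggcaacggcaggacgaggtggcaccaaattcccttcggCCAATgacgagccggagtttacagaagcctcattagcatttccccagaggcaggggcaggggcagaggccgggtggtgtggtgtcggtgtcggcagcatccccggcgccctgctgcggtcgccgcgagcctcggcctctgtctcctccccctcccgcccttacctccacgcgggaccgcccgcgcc

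In MSMO1 the 4 CCAAT boxes began 185, 139, 76 and 34 bases before the start, and in HMGCS1 the 2 lay at 155 and 100. In SREBF2 the sterol regulatory element began at 133 and the CCAAT box at 106. In INSIG1 the CCAAT box began at 170 and the E-box at 55. The 2 CCAAT boxes of SCD lay farther out, at 229 and 186.

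The measurement throughout is peak cover, the percent of a window that lies under the authors' called peaks in 1 library. For H3K36me3 the window was the gene body, and for the promoter marks it was 1 kb either side of the gene start. Lists held 67302 to 81320 peaks for H3K36me3, 42759 to 51229 for H2AZ, 44836 to 48391 for H3K27ac, 59945 and 60035 for H3K9ac and 128273 for ChIRP. Read depth is not in the lists. The background solved from each list's peaks, a stand-in for depth, was 1.39 and 0.902 reads in the NC1235 H3K36me3 libraries (replicates 1 and 2) and 1.10 and 0.788 in the Si1235 ones. For H2AZ it was 1.202 and 0.808 against 1.192 and 0.765, and the NC1235 H3K27ac lists gave none. Limma was run, mark by mark, on all genes whose cover averaged 5% or more, with Benjamini-Hochberg adjustment over all of them. Of 8 epithelial and HER2 marker genes, 8 had H3K27ac cover above 5% at the start in all 4 libraries and 7 had H3K36me3 cover above 5% over the body. The immune, fibroblast, adipocyte and hepatocyte markers with a window had an H3K36me3 cover of 0 in all 4 libraries, and 1 of 3 endothelial markers was above 5%. The promoter marks were less clear-cut. For H2AZ 4 of 8 epithelial and HER2 markers were above 5% in all 4 libraries, as were CD3E, KDR and COL1A1. For H3K27ac CD3E, CD14, CDH5 and COL1A1 were, and the summed H3K27ac cover of the immune markers was 45.3 to 66.0 in NC1235 and 81.1 to 92.8 in Si1235; its part in the results was not tested.

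H3K36me3 covered less of most sterol branch gene bodies in Si1235 than in NC1235. In 15 of 16 sterol genes the mean was lower in Si1235, against 43.7% of 8351 tested genes. In 11 of the 16 both Si1235 libraries lay below both NC1235 libraries, against 13.7%. Over all members the largest gaps were at MVK, ACAT2, CYP51A1 and the SREBP regulator INSIG1, each over 20 percentage points. In the fatty acid branch the mean was lower by over 10 points at 1 gene only, ACACA, while FASN and ACLY differed by under 3 points. TM7SF2, a sterol reductase gene, went the other way.

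Over all 30 members, 28 passed the filter on low cover, and ELOVL6 and FADS2 did not. Both Si1235 libraries were below both NC1235 libraries in 18 of the 28, beside the same 13.7%, and above both in 1, against 20.3% of tested genes. In 11 members the arms were apart and the Si1235 mean was lower by at least 10 points, against 3.6% of tested genes. Among genes of high cover, 11 of 15 members with a mean cover of at least 50% were lower without overlap, against 12.4% of such genes. These shares describe members picked with this contrast in view. Limma called 0 of 8351 genes (0%), so none of the 28, with 663 genes and 11 members at an unadjusted p under 0.05. The lowest adjusted p of a member was 0.147, for INSIG1.

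**Figure D1:**
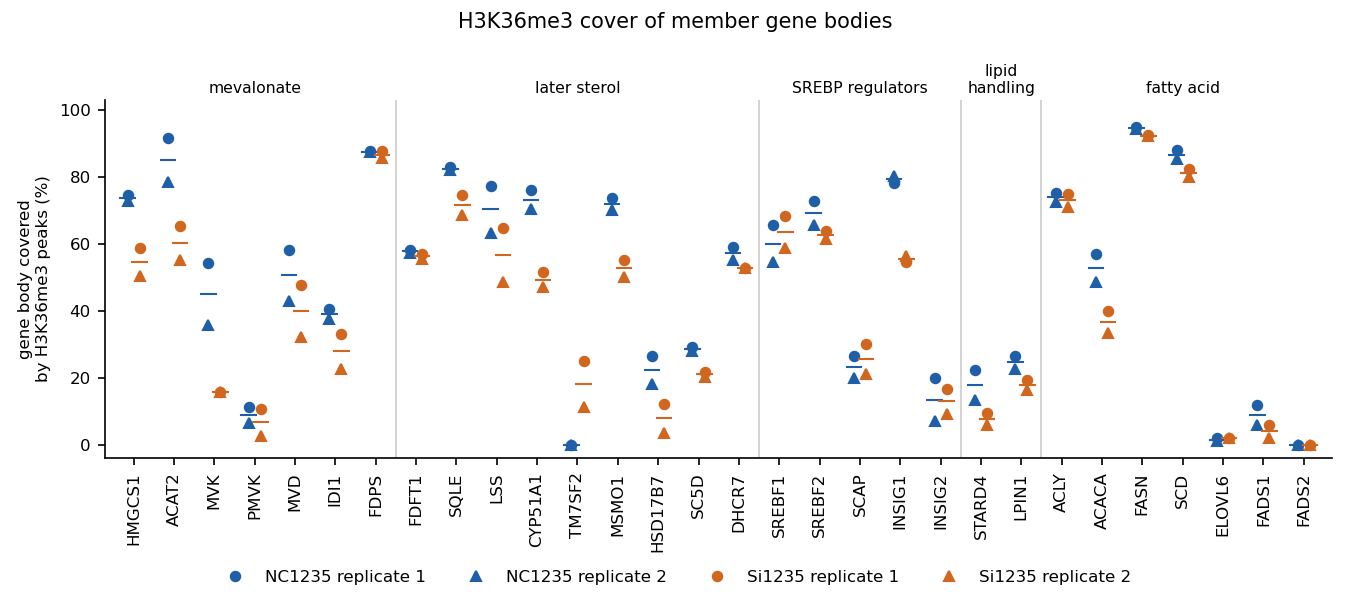
Percent of each member's gene body under H3K36me3 peaks (vertical axis) in the 2 NC1235 (blue) and 2 Si1235 (orange) libraries, circles for replicate 1 and triangles for replicate 2, with the arm mean as a short line. The orange points sit below the blue ones at 18 members and above them at TM7SF2.

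The first enzymes of the pathway were among the members with the widest gaps. HMGCS1, which joins acetyl-CoA to acetoacetyl-CoA on the way to mevalonate (chr5:43287470-43313412), had 74.5% and 72.8% of its body covered in NC1235 and 58.6% and 50.3% in Si1235. The arms did not overlap, with a difference of −19.2 points (SE 5.05, limma adjusted p = 0.356). ACAT2, the acetoacetyl-CoA thiolase that supplies it (chr6:159762045-159779112), had 91.5% and 78.5% in NC1235 against 65.3% and 55.2% in Si1235, again with both Si1235 libraries lower. The difference at ACAT2 was −24.8 points (SE 5.58, limma adjusted p = 0.273). Its ends overlap TCP1 by 615 bp and SOD2 by 237 bp, and peaks there cannot be given to 1 gene.

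MVK, mevalonate kinase (chr12:109573272-109598125), stood out most. Peaks covered 54.4% and 35.8% of it in NC1235 but 15.6% and 15.7% in Si1235, so the 2 NC1235 libraries differed widely and the 2 Si1235 libraries hardly at all. The difference of −29.4 points (SE 7.17, limma adjusted p = 0.309) was exceeded in the same direction by 7 of 8351 tested genes. The longest MVK peak measured 6190 and 4774 bp in the NC1235 libraries, and 1327 and 1312 bp in those of Si1235. The gene overlaps MMAB, its head-to-head neighbour, by 233 bp.

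The next steps of the mevalonate route varied. IDI1, which isomerises isopentenyl pyrophosphate, had 40.4% and 37.5% in NC1235 and 33.0% and 22.7% in Si1235, without overlap (difference −11.1 points). The strongest H3K36me3 peak on IDI1 ranked at the 97.0th and 98.8th percentile of fold enrichment within the NC1235 lists and at the 83.4th and 82.0th within the Si1235 lists, by the authors' own fold values. MVD, mevalonate diphosphate decarboxylase, had 58.2% and 42.9% against 47.8% and 32.2%, so its arms overlapped although the means differed by −10.6 points. PMVK, phosphomevalonate kinase, was thinly covered at 2.69% to 11.1% with overlapping arms. FDPS, farnesyl diphosphate synthase, was covered alike everywhere, at 87.6% and 87.4% in NC1235 and 87.6% and 85.5% in Si1235.

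**Figure D2:**
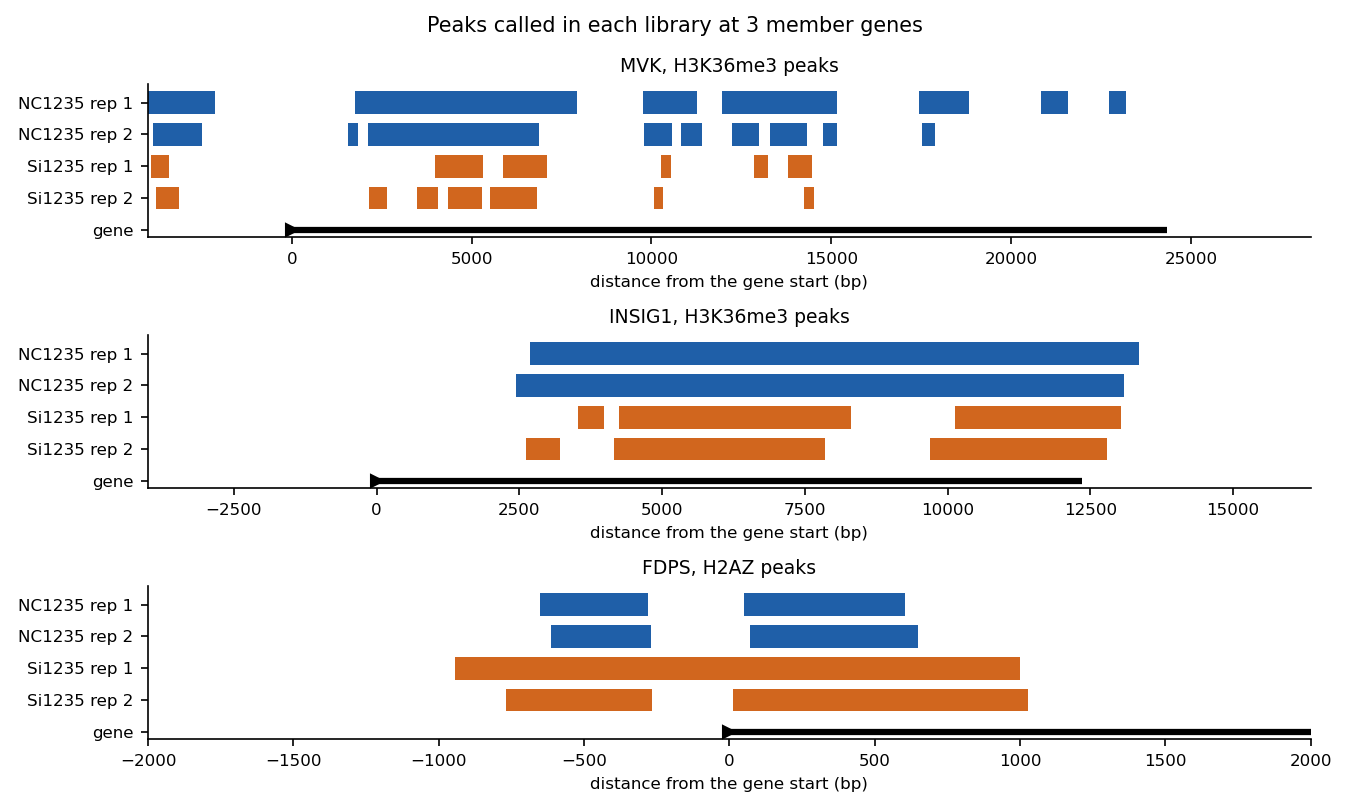
Called peaks (bars) in each of 4 libraries against distance from the gene start in bp, with the gene as a black line, for H3K36me3 at MVK and INSIG1 and for H2AZ at FDPS. At INSIG1, 1 peak in each NC1235 library faces 3 in each Si1235 library; at FDPS the Si1235 peaks reach farther from the start.

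After farnesyl diphosphate the pathway turns to sterols alone. SQLE, squalene epoxidase (chr8:124998505-125022283), had 83.0% and 81.9% in NC1235 and 74.4% and 68.5% in Si1235, without overlap (difference −11.0 points, SE 3.31, limma adjusted p = 0.437). A single peak of 23162 and 22878 bp lay on SQLE in the NC1235 libraries, beginning inside the gene. The longest was 10015 and 9218 bp in Si1235, among 4 and 5 peaks, and the Si1235 lists of this mark also held more peaks in total. CYP51A1, lanosterol demethylase (chr7:92112153-92134803), had 75.9% and 70.3% in NC1235 and 51.4% and 47.0% in Si1235. Both Si1235 libraries were far below both others, with a difference of −23.9 points (SE 5.22, limma adjusted p = 0.254). MSMO1, the C4-methylsterol oxidase (chr4:165327669-165343164), had 73.5% and 70.0% against 55.2% and 50.1% (difference −19.1 points, SE 5.01, limma adjusted p = 0.356). Here too the arms stood apart by more than the replicates did.

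HSD17B7, a sterol 3-keto reductase, had lower cover in all libraries, with 26.4% and 18.05% in NC1235 and 12.2% and 3.54% in Si1235 (difference −14.4 points). LSS, lanosterol synthase, had 77.2% and 63.2% against 64.6% and 48.6%; replicate 1 of Si1235 lay just above replicate 2 of NC1235, so the arms overlapped. The others were closer together: SC5D, sterol C5-desaturase, was at 28.0% to 29.1% in NC1235 and 20.3% to 21.6% in Si1235. DHCR7, the last reductase of cholesterol synthesis, was at 55.1% to 59.1% against 52.6% to 52.8%. FDFT1, squalene synthase, was at 57.4% to 58.0% against 55.6% to 56.8%. In each of these 3 genes the arms were apart, by differences of −7.65, −4.40 and −1.48 points.

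TM7SF2, a sterol C14-reductase gene of short length (chr11:65111872-65116230), was the exception. It had no H3K36me3 peak in either NC1235 library (0%) and 25.1% and 11.3% in the Si1235 libraries (difference 18.2 points, SE 4.54, limma adjusted p = 0.326). It passed the filter on low cover only through the Si1235 libraries, so that it had to differ. Each Si1235 library had 1 peak there, of 1120 and 494 bp, at the far end of the gene: of 5 equal stretches of the body, the last was covered to 100% and 56.7%.

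The SREBP regulators differed among themselves. INSIG1, which retains SCAP when sterols are high and is itself an SREBP target (chr7:155297878-155310235), had 78.3% and 80.2% in NC1235 and 54.5% and 56.3% in Si1235. Replicates agreed within 2 points while the arms stood −23.9 points apart (SE 4.15, limma adjusted p = 0.147). In NC1235 a single peak of 10673 and 10654 bp lay on INSIG1, and in Si1235 there were 3 peaks, the longest of 4063 and 3684 bp. As at SQLE, this stands beside the larger total number of peaks in the Si1235 lists. SREBF2, which encodes SREBP2, the factor that acts most on sterol genes, had 72.8% and 65.6% against 63.7% and 61.5%, also without overlap (difference −6.63 points). SREBF1, which encodes SREBP1, the factor tied more to fatty acid genes, had 65.4% and 54.6% against 68.1% and 58.7%, with overlapping arms. SCAP at 19.99% to 30.1% and INSIG2, the second INSIG gene, at 7.04% to 19.8% overlapped as well.

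The genes of lipid handling were both lower in Si1235. STARD4, a carrier of cholesterol between membranes, had 22.2% and 13.3% in NC1235 and 9.43% and 5.70% in Si1235 (difference −10.2 points, SE 3.99). LPIN1, a phosphatidate phosphatase on the way to triglyceride, had 26.5% and 22.7% against 19.3% and 16.3% (difference −6.80 points). Neither pair of arms overlapped.

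In the fatty acid branch ACACA, acetyl-CoA carboxylase 1 (chr17:37084992-37406836), had 56.9% and 48.6% in NC1235 and 39.9% and 33.2% in Si1235. Its arms did not overlap (difference −16.2 points, SE 6.59, limma adjusted p = 0.59998), and C17orf78 lies within 5.20% of it. FASN, fatty acid synthase (chr17:82078338-82098236), had the highest cover of all members, with 94.9% and 94.3% in NC1235 and 92.4% and 92.2% in Si1235. A single peak of 19331 to 19569 bp lay on FASN in each of the 4 libraries. SCD, stearoyl-CoA desaturase, had 87.9% and 85.2% against 82.2% and 79.8%, apart by −5.57 points. ACLY, which makes cytosolic acetyl-CoA for both branches, had 75.3% and 72.6% against 74.9% and 71.1% and overlapped. The chain-modifying genes were barely marked: FADS1 had 1.93% to 11.9%, ELOVL6 1.00% to 2.04%, and FADS2 had no peak in any library.

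Set side by side, the median difference was −11.1 points over the 16 sterol branch genes, −2.32 over the 7 fatty acid genes and −6.71 over all 30 members, against 0.694 over all 8351 tested genes. The 7 fatty acid genes include ELOVL6 and FADS2, which had next to no cover to lose and did not pass the filter. Over the 5 that passed it the fatty acid median was −4.93, and the sterol median, with 16 of 16 passing, stayed at −11.1. The value −4.93 was that of FADS1, whose arms overlapped and whose mean cover was 8.88% in NC1235 and 3.94% in Si1235. FADS1 thus passed the 5% filter only through NC1235. At the other end, FASN and SCD were covered to 100% in stretches 2 to 4 of 5 equal stretches in all 4 libraries. The sterol gene FDPS was so in stretches 2 and 3. Peak cover cannot show a weaker mark where peaks still span a stretch, and the part of this in the branch medians was not tested. Arms were lower without overlap in 11 of 16 sterol genes and in 3 of 5 fatty acid genes that passed (ACACA, FASN, SCD), beside 13.7% of tested genes. After quantile normalization of cover, a choice made after seeing the data, the medians were −12.7 for the sterol branch and −5.67 for the 7 fatty acid genes. The gap between the branches was not tested, since the genes were chosen on this contrast. Within replicate 1 the sterol branch median was −9.55 points and within replicate 2 it was −13.9. Si1235 replicate 1 had a higher background than NC1235 replicate 2. In that pair the sterol branch median was −5.18, with 11 of 16 genes lower, against 1447 of 8351 tested genes. The median of all tested genes there was 5.17. Background only stands in for depth, and the part of depth in these differences was not tested. Leaving out Si1235 replicate 2 put the sterol branch median at −6.47, and leaving out Si1235 replicate 1 put it at −17.3. Peak cover cannot tell fewer cells with the mark from less mark per cell.

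**Figure D3:**
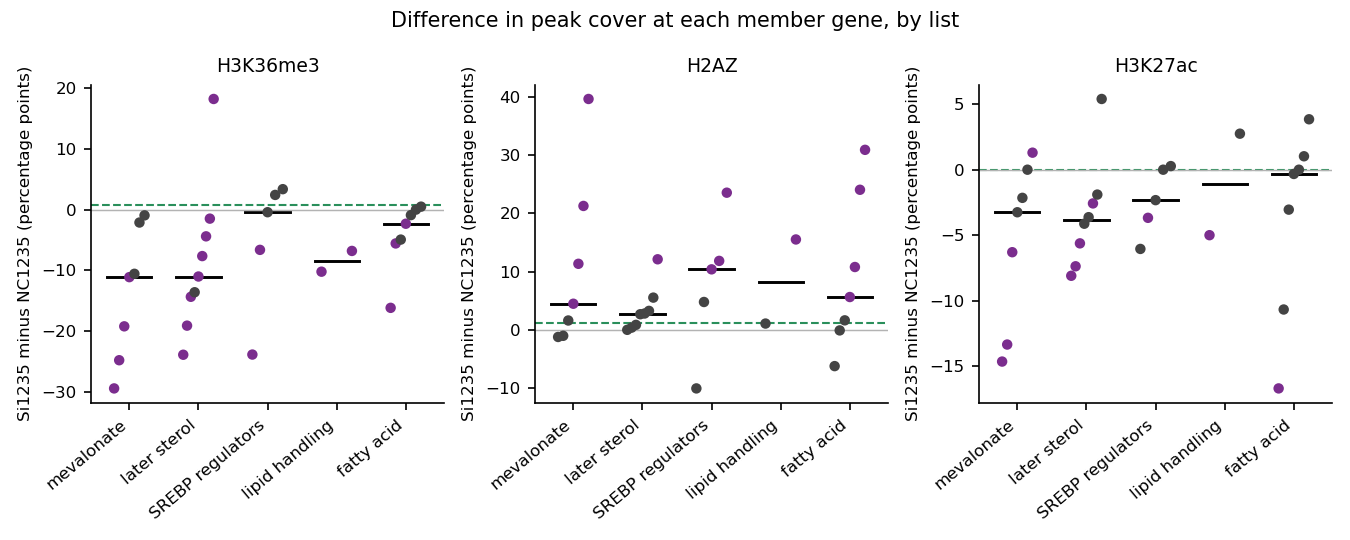
Difference in mean peak cover (Si1235 minus NC1235, percentage points) of each member, by group of genes and mark; purple points are members whose arms do not overlap, black lines are group medians, and the green dashed line is the median of all tested genes. For H3K36me3 the mevalonate and later sterol medians lie near −11 and the median of all 7 fatty acid genes at −2.32.

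Calls depended on single libraries. ACAT2 was called by limma without Si1235 replicate 1 (adjusted p = 0.000269) or replicate 2 (adjusted p = 0.0246), MVK without NC1235 replicate 2 (adjusted p = 0.0322) and TM7SF2 without Si1235 replicate 2 (adjusted p = 4.94e-05). At TM7SF2 that fit set 1 Si1235 library against 2 NC1235 values of 0, which have no spread, and the gene had to differ to pass the filter. After the same quantile normalization limma called 94 of 8343 genes, 66 higher and 28 lower. Among them were the members ACAT2, MVK and CYP51A1 (limma adjusted p = 0.0466, 0.0409 and 0.0290).

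Each gene body was cut into 5 equal stretches, numbered from the start, to see where cover differed. In the sterol branch both Si1235 libraries were below both NC1235 libraries in stretches 1 to 4, and the arms overlapped in stretch 5. The overlap in stretch 5 rests on TM7SF2, which had 0% there in both NC1235 libraries and 100% and 56.7% in Si1235. The mean over the 16 genes in stretch 1 was 19.0% and 17.8% in NC1235 against 11.7% and 11.9% in Si1235. In stretch 4 it was 71.9% and 60.6% against 51.2% and 44.1%, the widest gap, and in stretch 5 it was 64.3% and 58.5% against 62.6% and 49.5%. In the fatty acid branch both Si1235 libraries were below both NC1235 libraries in each of the 5 stretches, with 54.5% and 49.1% against 48.7% and 47.0% in stretch 4 and 52.8% and 49.1% against 48.2% and 41.0% in stretch 5. In stretch 4 all tested genes had 58.4% and 50.2% against 58.1% and 52.8%.

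Single genes differed in where the gap lay. INSIG1 was fully covered in stretch 3 in all 4 libraries, and in stretch 4 it was covered to 100% and 100% in NC1235 and to 36.3% and 25.5% in Si1235. ACAT2 had 90.6% and 42.2% of stretch 4 covered in NC1235 and 12.9% and 0% in Si1235. HMGCS1 differed nearer its start, with 83.1% and 70.1% against 28.3% and 13.5% in stretch 2 and 100% in all 4 libraries in stretch 4.

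**Figure D4:**
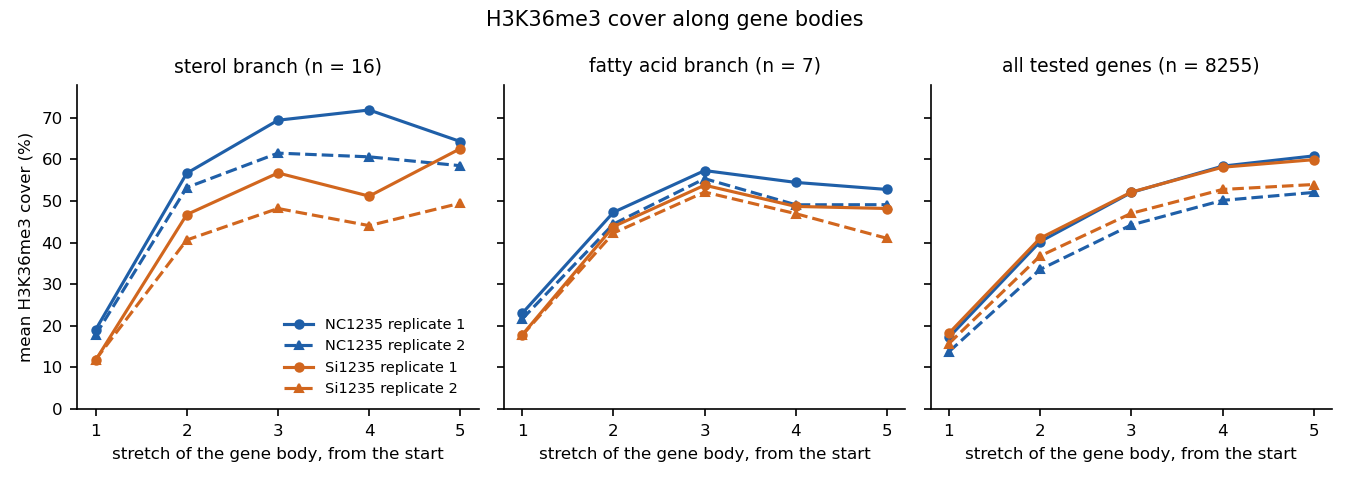
Mean H3K36me3 cover (%) of 5 equal stretches of the gene body for the sterol branch (16 genes), the fatty acid branch (7 genes) and all tested genes with a known direction (8255 genes), 1 line per library. In the sterol branch both Si1235 lines run below both NC1235 lines except in stretch 5, where the overlap rests on TM7SF2. In the fatty acid branch they do so in all 5 stretches, and the lines for all tested genes pair by replicate number.

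Of 26 other genes of the same pathways, 24 passed the filter for H3K36me3. Both Si1235 libraries were lower in 5 of them, against 13.7% of all tested genes, and higher in 0, against 20.3%. The median difference over the list was −1.38 points. That list holds EBP and NSDHL of the later sterol steps, the SREBP proteases, the NF-Y subunits and further fatty acid enzymes. Of 6 genes of sterol efflux and storage, 2 passed, 1 higher and 1 lower.

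H2AZ at the gene start covered more of the window in Si1235 for many members, and here the fatty acid branch was not behind the sterol branch. Of 29 members with a start window, 13 had both Si1235 libraries above both NC1235 libraries, against 20.8% of 17450 tested genes, and 0 had both below, against 10.8%. In 11 members the arms were apart and the Si1235 mean was higher by at least 10 points, against 8.44% of tested genes. Limma called 0 of 17450 genes (0%), with 1042 genes and 4 members at an unadjusted p under 0.05, and the lowest adjusted p of a member was 0.696. FDFT1 had no start window.

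FDPS had the widest H2AZ gap. Its start window was covered to 46.3% and 46.2% in NC1235 and to 97.2% and 74.5% in Si1235, a difference of 39.6 points (SE 9.39, limma adjusted p = 0.734) that 27 of 17450 genes exceeded. The NC1235 replicates were alike and the arms far apart, although the Si1235 replicates differed from each other by more than 20 points. In each NC1235 library 2 peaks lay at FDPS, from 650 and 613 bp before the start to 604 and 650 bp after it. Si1235 replicate 1 had a single peak of 1945 bp, from 944 bp before the start to 1000 bp after it. Si1235 replicate 2 also had 2 peaks, from 768 bp before the start to 1029 bp after it. IDI1 had 69.7% and 73.4% in NC1235 and 94.0% and 91.5% in Si1235, a gap of 21.2 points with little spread on either side (SE 3.07, limma adjusted p = 0.696).

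SCD had 46.2% and 24.2% in NC1235 and 81.3% and 50.8% in Si1235. FASN had 20.2% and 14.4% against 54.5% and 28.2%. Both fatty acid genes had arms apart, by 30.9 and 24.0 points (SE 14.7 and 10.8, limma adjusted p = 0.904 for each). The spread was wide within both arms at SCD and within Si1235 at FASN. ACLY had 88.7% and 80.8% against 96.4% and 94.7% (difference 10.8 points). ELOVL6, the elongase of long-chain fatty acids, was apart by 5.62 points. ACACA, FADS1 and FADS2 overlapped, and FADS2 ranged from 47.4% to 100% within Si1235 alone.

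Among regulators INSIG2 had 79.5% and 48.1% in NC1235 and 88.2% and 86.3% in Si1235 (difference 23.5 points). SREBF2 had 64.0% and 54.1% against 70.7% and 71.0%, and SCAP 74.8% and 67.2% against 85.0% and 77.8%. These 3 regulators were higher in both Si1235 libraries, by 11.8 points at SREBF2 and 10.4 at SCAP, while INSIG1 overlapped. SREBF1 had the lowest H2AZ cover of the members, with 20.1% in NC1235 replicate 1 and 0% in the other 3 libraries. Its start window was under H3K27ac peaks to 100% in all 4 libraries. LPIN1 had 52.6% and 33.6% against 59.1% and 58.2% (difference 15.5 points).

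In the sterol branch the remaining gaps were smaller. DHCR7 had 87.5% and 79.8% in NC1235 and 93.3% and 98.2% in Si1235 (difference 12.1 points), HMGCS1 had 86.0% and 66.3% against 88.0% and 87.0%, and PMVK was apart by 4.47 points. CYP51A1 was fully covered in all 4 libraries. The members with the widest H3K36me3 gaps did not have the widest H2AZ gaps. MVK (difference −1.22 points), ACAT2 (−1.02), INSIG1 (4.775) and MSMO1 (5.53) overlapped between arms. HMGCS1 was apart by 11.3 points, and CYP51A1, fully covered, had no room to rise.

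**Figure D5:**
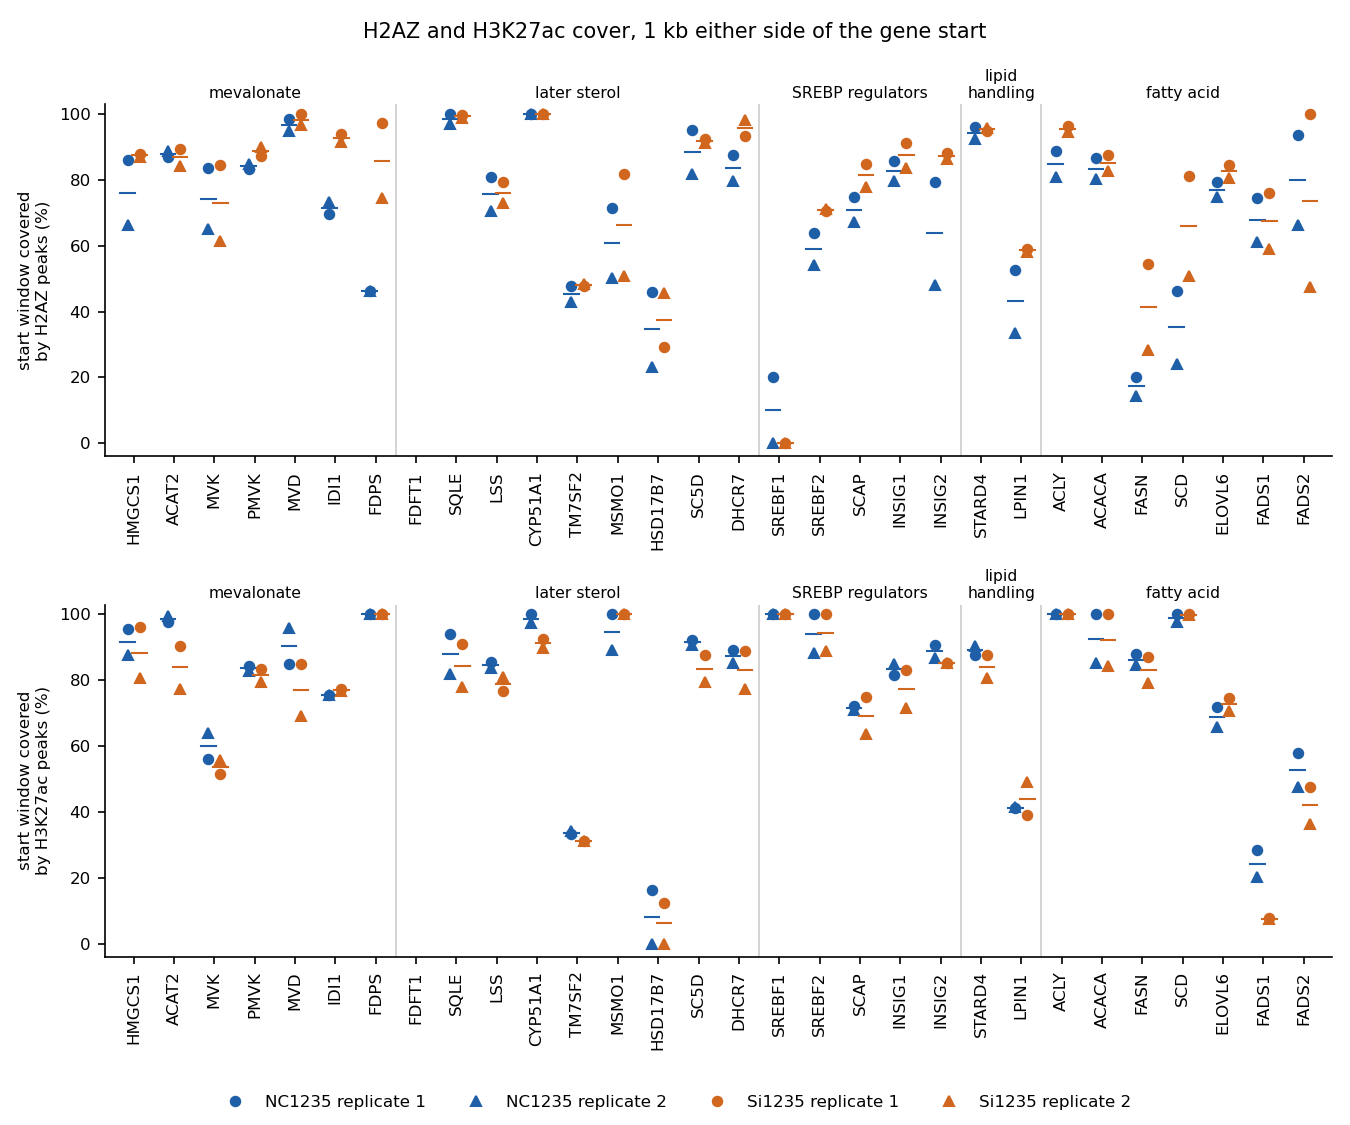
Percent of the window 1 kb either side of each member's start under H2AZ peaks (upper panel) and H3K27ac peaks (lower panel) in each library; colours, symbols and lines as in the plot of gene bodies. H2AZ points of Si1235 sit above those of NC1235 at 13 members, and H3K27ac points of Si1235 sit below at 10.

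The median H2AZ difference was 2.80 points over 15 sterol branch genes and 5.62 over 7 fatty acid genes, against 1.23 over all tested genes. Sterol genes were higher without overlap in 5 of 15 cases and fatty acid genes in 4 of 7, against 20.8% of all tested genes. The difference between the branches was not tested. Without NC1235 replicate 1 the sterol branch median was 8.08 points and the fatty acid median 7.95, so the order changed. Without NC1235 replicate 2 the sterol and fatty acid medians were 0 and 3.30. Without Si1235 replicate 1 they were 2.575 and 3.675, and without Si1235 replicate 2 they were 3.55 and 11.7. Of the other pathway genes, 7 of 24 tested were higher in both Si1235 libraries and 0 lower, against 20.8% and 10.8% of all tested genes.

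H3K27ac at the start differed less and leaned the other way. Both Si1235 libraries were below both NC1235 libraries in 10 of 29 members, against 17.7% of 15490 tested genes, and above both in 1, IDI1, against 23.3%. In 3 members, ACAT2, MVD and FADS1, the arms were apart and the Si1235 mean was lower by at least 10 points, against 7% of tested genes. Limma called 76 of 15490 genes (0.491%), 35 higher and 41 lower, and 0 of the 29 members, with 2 members at an unadjusted p under 0.05 and a lowest adjusted p of 0.244, for CYP51A1. Peaks in the NC1235 lists of this mark did not come out as whole reads when solved for depth, unlike those of Si1235, so the arms may not have been scaled alike; the part of this in the differences was not tested.

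ACAT2 had 97.6% and 99.5% of its start window covered in NC1235 and 90.5% and 77.3% in Si1235 (difference −14.7 points, SE 5.62, limma adjusted p = 0.454). MVD had 84.8% and 95.9% against 84.8% and 69.2%, so replicate 1 of the arms was nearly equal and replicate 2 set the difference of −13.4 points. CYP51A1 had 100% and 97.3% against 92.7% and 89.95%, a small gap of −7.38 points with little spread (SE 1.59). LSS, SC5D, MVK and TM7SF2 were also lower without overlap, by differences between −8.10 and −2.57 points. INSIG2 and STARD4 were lower likewise, by −3.67 and −5.00 points.

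FADS1 and FADS2, the delta-5 and delta-6 desaturase genes, overlap head to head by 801 bp, and their start windows overlap, so a peak between the starts counts for both. FADS1 had 28.3% and 20.2% in NC1235 and 7.70% and 7.45% in Si1235 (difference −16.7 points, SE 3.73, limma adjusted p = 0.252). In NC1235 2 peaks lay in the FADS1 window, the nearer one beginning 187 and 210 bp inside the gene, and in Si1235 there was 1 peak, beginning 847 and 852 bp inside it. By the authors' fold enrichment the strongest peak of the window ranked at the 36.3th and 30.0th percentile within the NC1235 lists and at the 59.4th and 52.9th within the Si1235 lists. FADS2, at 57.8% and 47.6% against 47.7% and 36.3%, overlapped between arms.

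FDPS, SREBF1 and ACLY were fully covered by H3K27ac peaks in all 4 libraries, and HSD17B7 had the lowest cover, with 16.2% and 12.4% in replicate 1 of the arms and 0% in replicate 2 of both. The median H3K27ac difference was −3.62 points over 15 sterol genes and −0.325 over 7 fatty acid genes, against 0 over all tested genes. In the sterol branch 7 of 15 genes were lower without overlap and in the fatty acid branch 1 of 7, FADS1, against 17.7% of all tested genes. Leaving out Si1235 replicate 2 put the sterol branch median at −0.075 and the fatty acid median at 0.775. Leaving out Si1235 replicate 1 put them at −8.13 and −6.88, and leaving out NC1235 replicate 2 at −6.58 and −4.72, so the gap between the branches was then smaller. Without NC1235 replicate 1, limma called 1 member, MSMO1, as higher (difference 10.8 points, adjusted p = 0.0122), but that sets a single NC1235 library at 89.2% against 2 Si1235 libraries at 100%, and the library left out was at 100% too. Of the other pathway genes 3 of 24 tested were lower without overlap and 5 higher, against 17.7% and 23.3% of all tested genes. ERLIN1, an endoplasmic reticulum protein tied to sterol sensing, had 82.4% and 69.8% in NC1235 and 100% in both Si1235 libraries. ACSS2, which makes acetyl-CoA from acetate, had 40.9% and 30.6% against 80% and 43.6%.

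H3K9ac had 1 library per arm, so no test was possible. At 14 of 29 members the start window was fully covered in both arms, among them ACAT2, MVK, MVD, FDPS, CYP51A1, FASN and SCD. No member differed by 20 points or more, against 7.7% of 17911 genes. The median cover of members was 98.65% in NC1235 and 100% in Si1235, against 84% and 82.95% over those genes. Many members thus had less room to rise. The extremes were SCAP, at 85.8% in NC1235 and 100% in Si1235, and TM7SF2, at 63.6% and 52.5%. SREBF2 had 88.5% and 100%, and HMGCS1 69.3% and 77.4%. The median difference was 0 in the sterol branch, in the fatty acid branch and over all genes.

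ChIRP cover of the gene bodies, which played no part in choosing the genes, was low throughout. A peak lay in 23 of 30 members (76.7%), in 13 of 16 sterol genes and in 6 of 7 fatty acid genes, against 69.0% of 18727 coding genes. The median cover was 1.497% over the members and 1.491% over all coding genes. TM7SF2 had the highest cover among members, 14.4% in 2 peaks, followed by CYP51A1 at 5.93% and INSIG2 at 5.07%. ACAT2, MVD, IDI1, SREBF1, INSIG1, STARD4 and SCD had no ChIRP peak. With 1 library and no ChIRP control list used here, no difference was tested.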

How the data were processed

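The submitters' processing notes name Bowtie2 2.2.9, MACS2 and the build hg38. Peak-calling settings and the control are not given in the sources used here. For each library the authors deposited a peak list (15 in all, none pooled), with peak positions, a fold enrichment (a linear ratio over background) and −log10 p- and q-values, per the layout of the narrowPeak format. The lowest deposited −log10 q-value was 2.00029. The deposited peak names of the H3K9ac lists carry another residue's name, and the labels were followed. The 2 inputs have no list used here.

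Overlapping peaks were merged and the percent of each window covered was computed with Python 3.11.15 and pandas 2.3.3. Bodies of coding genes were used from a length of 2 kb, and start windows of coding and lncRNA genes. Starts and strands came from the first entry of the RefSeq promoter table (26 members). ACAT2, SQLE and FASN, absent from it, took the gene end with more cover of the other promoter marks; FDFT1 had none, and its known plus strand served only to number its 5 stretches. Si1235 minus NC1235 was tested with limma 3.58.1 (R 4.3.3, intensity trend, threshold 0.05), tested on simulated data first. Depth was approximated by solving fold enrichment and −log10 p of up to 3000 peaks per list for a whole-number pileup within 0.002. The rule for giving every library's value was arms apart without overlap and means at least 10 points apart, or the highest or lowest cover of a mark. Every library's value is also given for other members, chosen after their values were seen. Other pathway genes were named from 20 points. The members and lists were chosen with earlier results of these data known. The values of 1 gene outside the members, past that rule, are not reported here.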

Additional observations from a re-analysis of the deposited data

How the results depend on the processing

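Of the recomputed values, 92 stayed near the reported ones and 28 moved. Leaving out 1 library at a time, with the lone library assumed to vary like the other arm, gave 37 to 115 genes called by limma for H3K36me3 and 142 to 322 for H3K27ac, and 0 to 2 and 0 to 1 members. It gave sterol branch medians from −17.3 to −6.47 points for H3K36me3 and from 0 to 8.08 for H2AZ, and fatty acid medians from −6.88 to 0.775 for H3K27ac. Over only the 50% of the gene body farther from the start the H3K36me3 sterol median was −15.3 and the fatty acid median −0.591. That sterol median was over 15 genes, without FDFT1, which had no start. Without the filter on low cover limma called 3 genes for H3K36me3, 10 for H2AZ and 122 for H3K27ac. With a window of 2.5 kb either side H3K27ac had 7 called genes. With a replicate block it had 0, as did H3K36me3 and H2AZ; the block removed all 76 calls of H3K27ac and changed no other. Same-numbered libraries deviated together with correlations of 0.296 (H3K36me3), 0.183 (H2AZ) and 0.0573 (H3K27ac) over genes, too few pairs to show pairing. Quantile normalization, added after seeing the data, gave 94 H3K36me3 calls (66 higher, 28 lower) with 3 members among them, and branch medians of −12.7 (sterol) and −5.67 (fatty acid). With peaks of −log10 q at least 5, HMGCS1 differed by 21.5 points in H3K9ac (55.9% and 77.4%), 1 member against 0. The cause of these moves was not tested. No read counts were used, so what depth limits is known only through the background of the lists, and a peak missing from a shallower list is not shown to be absent.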
